A study of Mus musculus with 8 samples.

Results

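The interferon response set described here holds 9 of the 24015 genes in the count table: Ifi27, Ifitm1, Ifitm2, Ifitm3, Isg15, Irf1, Irf7, Irf8 and Stat2. They were picked by name, together, because Ifi27 was higher in Sl/Sl than in wild type endothelium in these same data. The endothelial genotype comparison is therefore given as values without a test, for all 9 genes. All 9 were in the table and all 9 passed the filter on low counts.

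RNA was measured by SMART-seq2, a full-length cDNA method for small cell inputs, in 8 samples of 100 sorted cells each from the E11.5 mouse aorta-gonad-mesonephros region with its vitelline and umbilical vessels. There were 4 groups of 2 samples. Wild type clusters and Sl/Sl clusters were hematopoietic clusters, sorted as Ter119- VE-Cadherin+ c-Kit+ cells, while wild type endothelium and Sl/Sl endothelium were VE-Cadherin+ cells negative for Ter119, c-Kit, CD41 and CD45. Sl/Sl embryos carry, in every cell, a homozygous deletion that takes in the Steel locus with Kitl, the ligand of the Kit receptor, and the strain was kept on a C57BL/6 background. The labels name no other allele or treatment, a sample came from 1 embryo or a small pool of a shared genotype, and which sample belonged to which of the sorting experiments is not given in the sources used here. The edgeR and DESeq2 p-values below therefore measure only the spread between samples within groups of 2, pooled over the 4 groups and moderated across genes. The permutation tests compare 4 against 4 libraries. In sorted bulk samples fewer cells of a type and less RNA per cell cannot be told apart.

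Interferons are secreted cytokines that bind paired receptors on the cell surface. Type I interferon receptors act through the kinases Jak1 and Tyk2 and a complex that includes Stat2 and Irf9 and binds the interferon-stimulated response element (ISRE), while interferon gamma acts on gamma-activated sites (GAS). The induced genes include antiviral effectors such as Isg15 and the Ifitm membrane proteins, and Irf factors that feed back on the response. Some of these genes are also expressed without infection, and interferon signaling has been linked to hematopoietic stem cell formation in the embryonic aorta.

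The promoters of the set were read from RefSeq (GRCm38.p6, 250 bases before to 50 bases after each start), where 8 of the 9 genes had an entry and Ifi27 had none. They are shown because the set is named for a response that acts through these motifs. The ISRE core searched was GAAA followed by any 2 bases and a further GAAA, and the GAS core was TTCNNNGAA, each on both strands. At least 1 ISRE core lay in the windows of 4 genes (Isg15, Ifitm2, Ifitm3 and Stat2), where 3.99% of the 27025 genes with a promoter entry held one. At least 1 GAS core lay in those of 3 genes (Irf1, Irf8 and Ifitm3), where 9.55% of those genes held one. The Ifitm3 matches lay after the start, with the GAS core overlapping an ISRE core, and Ifitm1 and Irf7 held neither motif. In the stretches below, written 5′ to 3′ along the gene, capitals mark the ISRE core in Isg15 (3 overlapping copies, chr4:156200850-156200921, minus strand), Ifitm2 (chr7:140955973-140956032, minus strand) and Stat2 (on the opposite strand of the motif, chr10:128270251-128270310, plus strand), and the GAS core in Irf8 (2 copies, chr8:120736162-120736238, plus strand) and Irf1 (chr11:53769899-53769957, plus strand).
Isg15: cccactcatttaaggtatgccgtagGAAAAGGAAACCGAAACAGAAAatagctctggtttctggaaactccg
Ifitm2: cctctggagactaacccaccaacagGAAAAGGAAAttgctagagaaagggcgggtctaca
Stat2: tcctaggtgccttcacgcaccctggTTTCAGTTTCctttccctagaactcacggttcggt
Irf8: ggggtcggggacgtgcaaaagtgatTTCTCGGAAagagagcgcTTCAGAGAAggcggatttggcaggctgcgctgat
Irf1: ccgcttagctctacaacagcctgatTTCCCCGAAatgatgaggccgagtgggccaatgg

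The libraries held 8933236 to 13428214 counts, and 13908 genes were tested. Wild type endothelium held 1250 and 923 counts of Kitl, the deleted gene, and Sl/Sl endothelium 6 and 2. Its cluster counts were 110 and 0 for wild type, against 1 and 3 for Sl/Sl, so that it checks the label of wild type cluster replicate 1 but not that of replicate 2. Ptprc, the gene of the CD45 antigen gated out of endothelium, had 1294 to 3908 counts in the cluster libraries and 6 to 16 in the endothelial libraries. The other gated-out antigens separated less cleanly. Kit ranged from 2937 to 4392 in the clusters but still reached 538 to 1065 in endothelium. Itga2b, the gene of CD41, ranged from 109 to 271 in the clusters. Its endothelial counts rose from 44 to 53 for wild type libraries to 90 to 109 for Sl/Sl libraries, the direction also seen for Ifi27. Other such genes did not share that direction. Endothelial Kit was 1065 and 749 for wild type against 763 and 538 for Sl/Sl, and Ptprc 16 and 6 against 8 and 7. The sum of 10 hematopoietic markers was 97.7 to 101 CPM in wild type endothelium and 93.0 to 103 CPM in Sl/Sl endothelium. The part of Kit and Itga2b in the results was not tested. Cdh5, the gene of the sorted antigen VE-Cadherin, had 4480 to 8240 counts in endothelium and 154 to 2531 in the clusters, with the lowest value in wild type cluster replicate 2. All 11 macrophage markers listed had more than 3 counts in each cluster group, with a sum of 280 to 865 CPM (counts scaled to a common library total of 1000000 by TMM library size). In endothelium the same sum was 6.91 to 34.9 CPM. Of the 11 markers, 4 had more than 3 counts in a wild type endothelial library and 6 in a Sl/Sl endothelial library. Cx3cr1, C1qa, C1qc and Mpeg1 were at 0 in both wild type libraries, and only Fcgr1 in both Sl/Sl libraries. The sum of 12 germ cell markers was 416 CPM in wild type cluster replicate 1 and 20.8 to 103 CPM in the other libraries. The sum of 8 mesenchymal markers varied most within the groups, at 33.5 and 4497 CPM in Sl/Sl clusters, 755 and 1030 in wild type clusters, 1421 and 187 in wild type endothelium, then for Sl/Sl endothelium 86.1 and 1121, and its part in the results was not tested.

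Ifi27 was present in the clusters of both genotypes and in Sl/Sl endothelium, and nearly missing from wild type endothelium. The gene encodes a small interferon-inducible membrane protein. It lay on mm9 at chr12:104672399-104678455, plus strand. Its counts were 115 and 288 in wild type clusters, 214 and 515 in Sl/Sl clusters, 2 and 4 in wild type endothelium, then for Sl/Sl endothelium 318 and 129. The wild type endothelial libraries lay below every other library, while the 3 other groups overlapped. In CPM the means were 16.2 ± 8.84, 26.8 ± 13.0, 0.281 ± 0.173 and 21.6 ± 8.82 (SD, n = 2) in the same order.

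In endothelium the Ifi27 level was 6.24 higher on the log2 scale in Sl/Sl than in wild type (SE 1.13), the difference for which the set was chosen. The summed counts, 447 against 6, gave a ratio of 84.5 after library size, with a 95% interval of 38.5 to 231.5 that covers counting error only. With any of the 8 libraries left out, the log2 difference was between 5.71 and 7.01, the highest without wild type endothelial replicate 2. The sum of 10 endothelial markers was 6432 to 6747 CPM in Sl/Sl endothelium and 5948 to 6144 CPM in wild type, and the macrophage sum was 6.91 to 20.4 against 15.1 to 34.9 CPM. In the clusters the same genotype contrast gave 0.73 on the log2 scale (SE 0.88, adjusted p = 1 by edgeR's quasi-likelihood test), and the groups overlapped. Whether the genotype difference itself differed between endothelium and clusters was not tested, because the endothelial contrast had chosen the gene. The pooled Ifi27 counts of wild type clusters were 61.8 times those of wild type endothelium (counting interval 28.1 to 169.3), while those of Sl/Sl clusters were 1.22 times those of Sl/Sl endothelium.

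Part of the reads of Ifi27 may belong to a neighbor, which was not tested. Ifi27l2a, a related gene at chr12:104672083-104681890 on the minus strand, shared 103 exonic bases with it, and the strand setting of the counting is not given in the sources used here. Ifi27l2a had 158 and 79 counts in wild type clusters, 20 and 45 in Sl/Sl clusters, 1 and 0 in wild type endothelium, then for Sl/Sl endothelium 1 and 0. It had at most 1 count in every endothelial library, also where Ifi27 was high. Ifi27l2b, the next gene of the family, was at 0 in all 8 libraries. The GENCODE annotation of the build uses the name Ifi27l1 for the gene at the Ifi27 position, RefSeq lists Ifi27l1 as a synonym of Ifi27, and the count table holds no separate Ifi27l1.

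**Figure D1:**
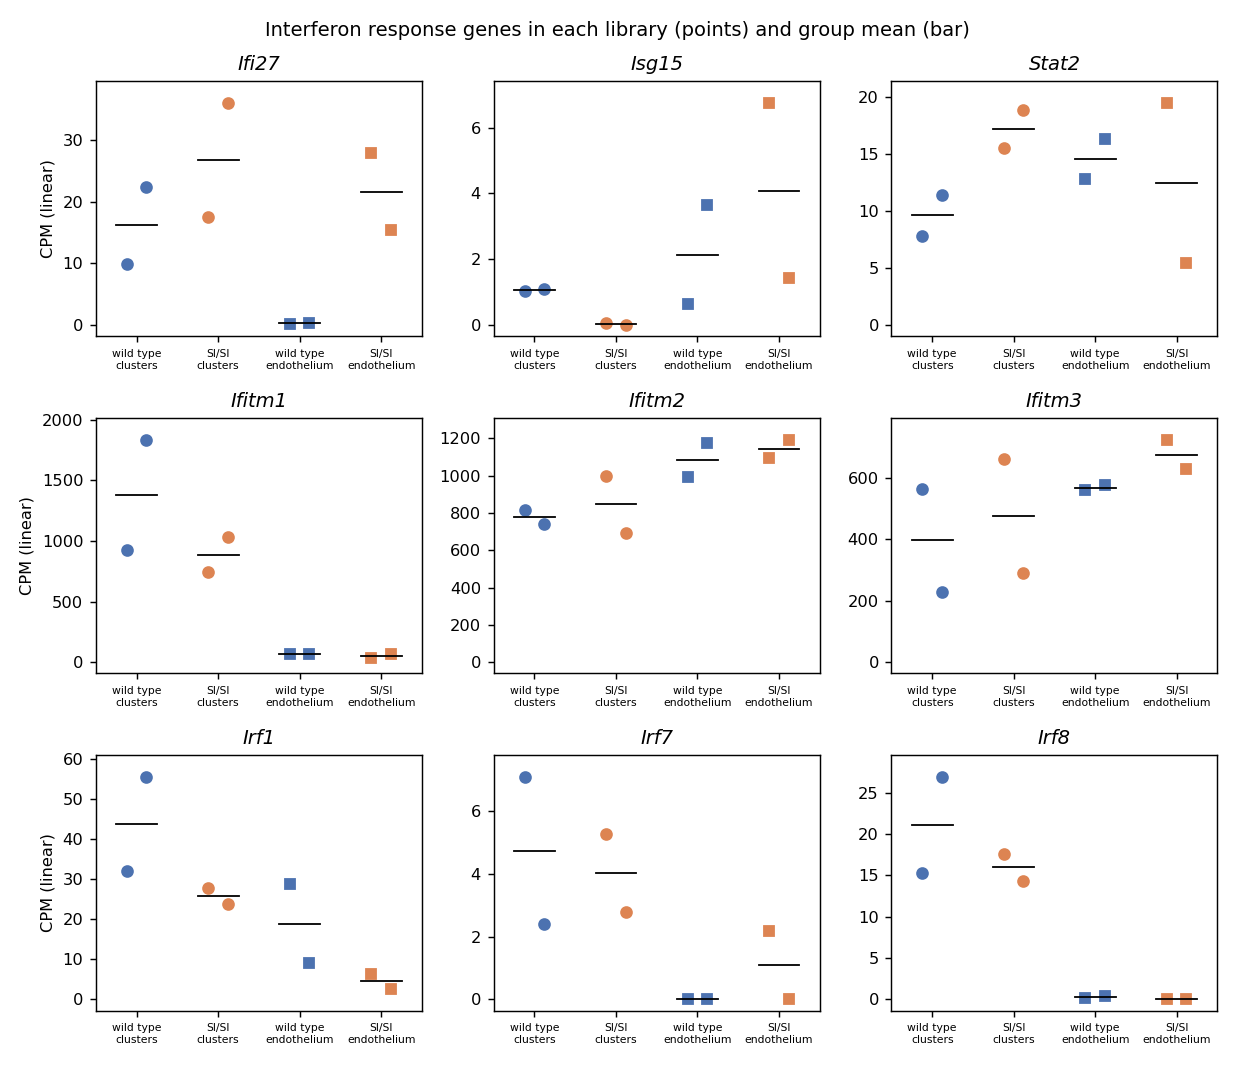
Level of each of the 9 genes (CPM, linear axis from 0) in the 4 groups, with 1 point per library (circles for clusters, squares for endothelium, blue for wild type, orange for Sl/Sl) and a bar at the group mean. Ifi27 is near 0 in wild type endothelium alone (2 and 4 counts), whereas Ifitm1, Irf7 and Irf8 are low in the endothelium of both genotypes.

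The Ifitm genes were by far the most abundant of the set, and Ifitm1 was the member that differed most clearly by cell type. They encode interferon-inducible transmembrane proteins that restrict viral entry, and all lie together on chromosome 7 (Ifitm2 at chr7:148140738-148141860, Ifitm1 at chr7:148153328-148155726 and Ifitm3 at chr7:148195489-148196643 on mm9). Ifitm1 had 10715 and 23515 counts in wild type clusters, 9097 and 14771 in Sl/Sl clusters, 857 and 654 in wild type endothelium, then for Sl/Sl endothelium 405 and 551. The lowest cluster library, at 9097, was well above the highest endothelial library, at 857. Ifitm1 was lower in endothelium, with a log2 difference of -4.25 as the mean of both genotypes (SE 0.30, adjusted p = 0.000104), -4.36 in wild type alone (SE 0.42, adjusted p = 0.00146) and -4.14 in Sl/Sl alone (SE 0.42, adjusted p = 0.00232).

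Ifitm2 was abundant in all 4 groups, at 9495 and 9544 counts in wild type clusters, 12181 and 9941 in Sl/Sl clusters, 12484 and 11630 in wild type endothelium, then for Sl/Sl endothelium 12507 and 9988. It rose by 0.45 on the log2 scale in endothelium as the mean of both genotypes (SE 0.15, adjusted p = 0.0930), a call that was lost when any library but Sl/Sl cluster replicate 1 was left out (adjusted p up to 0.273), and also with size factors of another kind. The cell types overlapped. Ifitm3 had 6555 and 2925 counts in wild type clusters, 8072 and 4170 in Sl/Sl clusters, 7046 and 5712 in wild type endothelium, then for Sl/Sl endothelium 8245 and 5275. Its endothelial difference was 0.51 on the log2 scale (SE 0.32, adjusted p = 0.346). In each cluster group replicate 1 held the higher Ifitm3 level, at 565 against 228 CPM in wild type and 663 against 291 CPM in Sl/Sl. The sum of the 10 endothelial markers was 1202 and 429 CPM in the same wild type libraries and 2800 and 763 CPM in the Sl/Sl libraries, and its part in the Ifitm3 level was not tested.

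Between the genotypes, the Ifitm genes gave 0 calls in the clusters, where 0.00% of all tested genes were called, and were not tested in endothelium. In the clusters the log2 differences of Sl/Sl from wild type were -0.63 for Ifitm1 (SE 0.37), 0.12 for Ifitm2 (SE 0.21) and 0.27 for Ifitm3 (SE 0.45), each at an adjusted p of 1, and all overlapped. In endothelium the values were -0.41 (SE 0.37), 0.08 (SE 0.21) and 0.25 (SE 0.45), with Ifitm1 lower and Ifitm3 higher in Sl/Sl without overlap. The Ifitm1 groups all but met, at 66.05 CPM in wild type replicate 2 against 65.6 CPM in Sl/Sl replicate 2. Without Sl/Sl endothelial replicate 1 the Ifitm1 log2 difference was -0.027. Together the 3 genes took 0.215% to 0.287% of all counts in the cluster libraries and 0.159% to 0.178% in the endothelial libraries. Per base of exon, the ratio of Ifitm1 to Ifitm2 was 0.557 to 1.84 in the clusters and 0.0242 to 0.0512 in endothelium. By RPKM, the CPM of plain library totals per kilobase of exon, Ifitm2 ranked between 7 and 28 among all genes of each library.

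Isg15 and Stat2, a conjugated effector and a transducer of the type I response, passed the edgeR test in no contrast, while DESeq2 called Isg15 higher in endothelium. Isg15 encodes a ubiquitin-like protein that is attached to other proteins, and it lay at chr4:155573533-155574927 on mm9. It had 12 and 14 counts in wild type clusters, 1 and 0 in Sl/Sl clusters, 8 and 36 in wild type endothelium, then for Sl/Sl endothelium 77 and 12. Wild type and Sl/Sl clusters did not overlap, and the summed counts, 26 against 1, gave a ratio of 28.2 with a counting interval of 4.63 to 1155. The edgeR test of that difference gave an adjusted p of 1 (unadjusted p = 0.119). Between the cell types the Isg15 difference was 3.67 on the log2 scale as the mean of both genotypes (SE 1.73, adjusted p = 0.214 by edgeR, 0.0777 by DESeq2), and the cell types overlapped. In Sl/Sl alone it was 6.34 (SE 2.79, adjusted p = 0.343 by edgeR, 0.0698 by DESeq2) without overlap, on a cluster total of 1 count. In endothelium the Isg15 counts of the genotypes overlapped, with a wide gap between the paired libraries of each. Stat2, a transcription factor of the type I complex (chr10:127707632-127729905), had 91 and 147 counts in wild type clusters, 189 and 270 in Sl/Sl clusters, 161 and 161 in wild type endothelium, then for Sl/Sl endothelium 222 and 46. It was 0.83 higher on the log2 scale in Sl/Sl clusters (SE 0.93, adjusted p = 1) without overlap, and the cell types differed by 0.06 (SE 0.65, adjusted p = 0.984). The lowest and the highest Stat2 level of all 8 libraries, 5.48 and 19.4 CPM, were those of the Sl/Sl endothelial pair.

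Irf8 and Irf1 were lower in endothelium than in the clusters, and Irf7 had counts in only 1 of the 4 endothelial libraries. Irf8, a factor of myeloid and B cell development, lay at chr8:123260276-123280592 on mm9 and had 178 and 345 counts in wild type clusters, 215 and 205 in Sl/Sl clusters, 3 and 4 in wild type endothelium, then for Sl/Sl endothelium 1 and 0. Its summed counts were 68.7 times higher in wild type clusters than in wild type endothelium (counting interval 33.1 to 171.7), and 314 times higher in Sl/Sl clusters than in Sl/Sl endothelium, where the total of 1 count leaves an interval of 56.1 to 12430. The mean fitted difference was -7.04 on the log2 scale (SE 1.07, adjusted p = 0.00408). The differences within wild type (adjusted p = 0.0459) and within Sl/Sl (adjusted p = 0.0463) passed on all 8 libraries. The wild type call was lost without wild type cluster replicate 2 or either wild type endothelial library (adjusted p up to 0.188), and the Sl/Sl call without any of the 4 Sl/Sl libraries (adjusted p up to 0.126). The macrophage marker sums, which differ between the cell types in the same direction, are given above, and their part in the Irf8 level was not tested.

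Irf1, an early interferon gamma target that activates other response genes, had 371 and 712 counts in wild type clusters, 338 and 340 in Sl/Sl clusters, 363 and 89 in wild type endothelium, then for Sl/Sl endothelium 72 and 23 (chr11:53583516-53591876). The cell types overlapped through wild type endothelial replicate 1. Irf1 was lower in endothelium, at -1.85 on the log2 scale (SE 0.57, adjusted p = 0.0742), a call lost in 5 of the 8 fits that left out a library: wild type cluster replicate 2, either Sl/Sl cluster library, or replicate 2 of either endothelial group (adjusted p up to 0.213). It was lower in Sl/Sl without overlap in both cell types. The log2 difference was -0.76 in the clusters (SE 0.79, adjusted p = 1) and -2.06 in endothelium (SE 0.82), where it was -0.98 without wild type replicate 1.

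Irf7, the factor that amplifies type I interferon production, had 82 and 31 counts in wild type clusters, 64 and 40 in Sl/Sl clusters, 0 and 0 in wild type endothelium, then for Sl/Sl endothelium 25 and 0 (chr7:148449082-148452323). All cluster libraries were above all endothelial libraries, and against a floor of 3 counts per library, Irf7 was at least 17.3-fold higher in wild type clusters than in wild type endothelium. The edgeR test of the mean difference gave an adjusted p of 0.143, and DESeq2 gave 0.0347. The endothelial detection rested on the 25 counts of Sl/Sl replicate 1, the library that also held the most Ifi27 (318 counts), Isg15 (77) and Stat2 (222) of the 4 endothelial libraries. Other genes of the set went the other way there. The same library held the least Ifitm1 of the 4 (405 counts), and less Irf1 (72) and Irf8 (1) than either wild type endothelial library.

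Per exon length, the order of the genes differed between the groups. In wild type clusters it ran from Ifitm1 (1708 ± 737 RPKM, SD, n = 2) over Ifitm2 (1310 ± 139) and Ifitm3 (650 ± 411) to Ifi27 (16.0 ± 8.22), Irf1 (13.6 ± 4.67), Irf8 (7.79 ± 2.73), Irf7 (2.72 ± 1.96), Stat2 (2.29 ± 0.52) and Isg15 (1.48 ± 0.0012). Ifitm1 overlapped Ifitm2, Ifi27 overlapped Irf1, and Irf7 overlapped Stat2 between the paired libraries. In Sl/Sl clusters Ifitm2 led at 1401 ± 312 RPKM, and it overlapped Ifitm1 (1107 ± 287), which overlapped Ifitm3 (759 ± 396), while Ifi27 came next at 26.7 ± 13.8 RPKM. In wild type endothelium Ifitm2 (1659 ± 153), Ifitm3 (844 ± 5.26) and Ifitm1 (76.8 ± 3.76) led without overlap, and Ifi27 was near the end at 0.255 ± 0.151, above only Irf8 and Irf7. In Sl/Sl endothelium Ifi27 followed the same 3 Ifitm genes at 19.5 ± 8.24, above Isg15, Stat2, Irf1, Irf7 and Irf8. The levels from Isg15 to Irf7 overlapped their neighbors there.

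**Figure D2:**
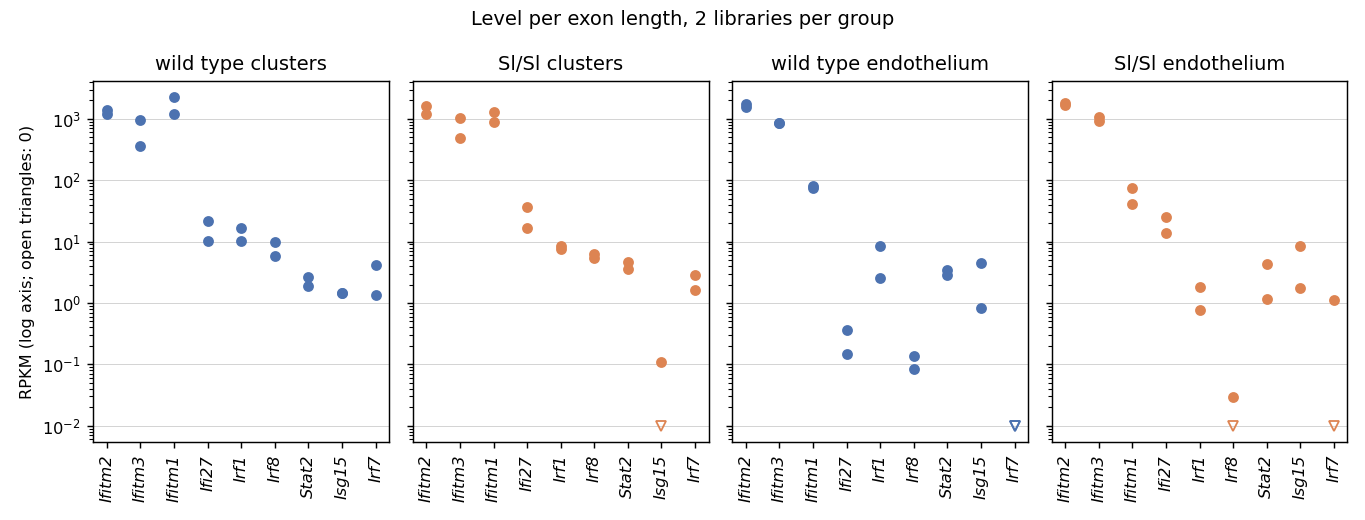
Level per exon length (RPKM, log axis) of the 9 genes in each group, with 1 point per library and open triangles at the foot for libraries with 0 counts. Ifitm2 and Ifitm3 stay at 359 RPKM or more in every library, Ifitm1 is at 79.5 RPKM or less in endothelium, and Ifi27 is under 1 RPKM in wild type endothelium only.

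For the clusters, which the rule did not use, the question was whether loss of Kitl altered the set. Of the 9 genes, 0 passed an adjusted p of 0.1 (edgeR), where the background over all genes was 0.00%. Since that test called no gene at all, its count could not answer the question. At an unadjusted p under 0.05 the count was 0 of 9, against 4.22% of all genes, and DESeq2 called 0 of 9, against 1.37%. The groups did not overlap for 3 genes, Stat2 higher and Isg15 and Irf1 lower in Sl/Sl, where 32.7% of all tested genes did not overlap (16.4% higher and 16.3% lower). In endothelium, leaving out Ifi27 for which the set was chosen, 4 of the other 8 genes did not overlap, with 1 higher (Ifitm3) and 3 lower (Ifitm1, Irf1 and Irf8) in Sl/Sl, beside a background of 28.5% (13.5% higher and 14.9% lower). Of these, Irf8 rested on 3 and 4 wild type counts against 1 and 0. Ifitm1 rested on 66.05 against 65.6 CPM in the nearest libraries, and the Irf1 log2 difference was -0.98 without wild type replicate 1.

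Between endothelium and clusters, 8 of the 9 genes were tested, since Ifi27 was chosen for its genotype difference in the same endothelial libraries. As the mean of both genotypes 1 gene was called higher in endothelium (Ifitm2) and 3 lower (Ifitm1, Irf1 and Irf8), where 16.6% of all tested genes were called (8.48% higher and 8.12% lower). Ifitm1 and Irf8 were called in every fit that left out a library. In wild type alone 2 of 8 were called, both lower, where 8.24% of all genes were called and 3.68% were called lower. In Sl/Sl alone 2 of 8 were called, again lower, where 2.83% were called and 1.84% lower, in both cases Ifitm1 and Irf8. DESeq2 called more of the 8 genes, and more of all genes. It called 6 as the mean of the genotypes, adding Isg15 and Irf7, where it called 25.7% of the genes given an adjusted p. In wild type it called 3, adding Irf7, where it called 19.2%, and in Sl/Sl 4, adding Isg15 and Irf1, where it called 12.3%. All endothelial libraries were below all cluster libraries for Ifitm1, Irf7 and Irf8, against 9.57% of genes in that direction. An exact two-sided permutation test of 4 against 4 libraries on log2 CPM gave p = 0.02857 for each of these 3 genes. That is the smallest value the design allows, and the lack of overlap fixes it, so it adds nothing to the separation itself. For Ifitm2 the permutation test gave p = 0.05714, for Irf1 p = 0.08571, for Isg15 p = 0.1143, for Ifitm3 p = 0.2286 and for Stat2 p = 0.9143 (8 relations computed, exact permutation tests, p not adjusted).

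**Figure D3:**
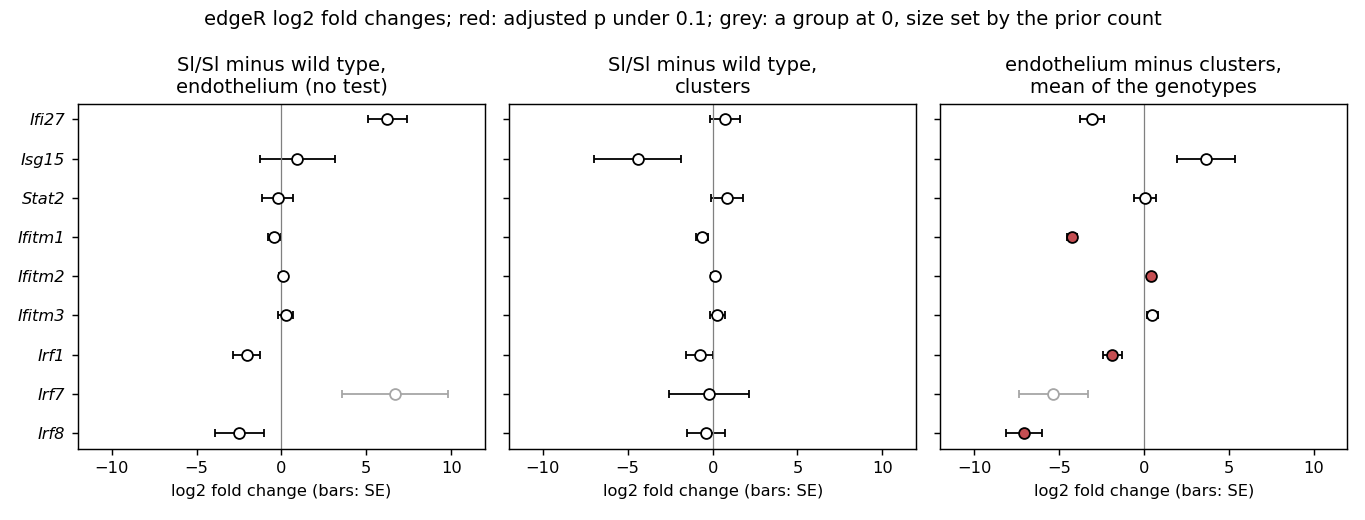
edgeR log2 fold changes with SE bars for the 9 genes, Sl/Sl minus wild type in endothelium (not tested) and in clusters, and endothelium minus clusters as the mean of the genotypes, with red points for an adjusted p under 0.1 and grey points where a group was at 0 and the size depends on the prior count. Ifi27 lies at 6.24 in the left panel and 0.73 in the middle one, and Ifitm1 (-4.25) and Irf8 (-7.04) lie far to the left in the cell type panel, where Ifi27 was not tested.

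The other genes of the pathway were taken from lists of interferons, receptors, factors, sensors and response genes. These held 149 genes without the set itself, of which 145 were in the table, 23 were at 0 in all libraries and 107 passed the low-count filter. No interferon gene passed: of 21 in the table, 17 were at 0 everywhere, and Ifnab, Ifnb1, Ifnk and Ifnz were each detected in 1 library, with 35, 1, 6 and 12 counts. All 8 receptor and kinase genes that passed had counts in every library. None of them (0 of 8) was called in the clusters, where 0.00% of all tested genes were. Between the cell types, as the mean of the genotypes, 0 of 8 were called, beside 16.6% of all tested genes. Ifnar1, a chain of the type I receptor, had 1140 to 2702 counts and Ifngr1, the binding chain of the interferon gamma receptor, 1344 to 2935.

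Between the cell types, 21 of the 107 genes were called, 6 higher and 15 lower in endothelium, beside the 16.6% of all genes given above. The median log2 difference of the 107 was -0.55, against -0.07 for all tested genes. Antigen processing held 6 of the lower genes (H2-K1, Tapbp, Psmb8, Psmb9, Psmb10 and Cd74) and 1 higher, B2m. Psmb9 and Psmb8, subunits of the immunoproteasome, were lower in endothelium, at -8.23 (SE 0.96, adjusted p = 0.00117) and -5.05 (SE 0.74, adjusted p = 0.00345) on the log2 scale. Psmb9 had 210, 807, 329 and 787 counts in the cluster libraries and 0 to 6 in the endothelial libraries. The class I antigen H2-K1 was lower as well, at -2.80 (SE 0.34, adjusted p = 0.00135).

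Among the factors, Irf4, Irf5 and Spi1 were lower in endothelium, all of them regulators of myeloid or lymphoid cells. Irf5 had 38 to 191 counts in the clusters and 0 or 1 in endothelium. The myeloid factor Spi1, also named PU.1, was lower, at -4.71 on the log2 scale (SE 0.59, adjusted p = 0.00154). The sensor Tlr7, which detects single-stranded RNA, had 28 to 200 counts in the clusters and 0 or 1 in endothelium. Tlr3, a sensor of double-stranded RNA, went the other way, with 125 to 362 counts in endothelium and 1, 1, 42 and 0 in the clusters. Ly6e, an inhibitor of viral entry, was lower in endothelium, at -4.24 on the log2 scale (SE 0.51, adjusted p = 0.00129), as was the nucleotide hydrolase Samhd1, at -1.66 (SE 0.27, adjusted p = 0.00566), while Xaf1, a pro-apoptotic response gene, was higher, at 1.56 (SE 0.32, adjusted p = 0.0154). Ifi203, of the DNA-binding Ifi200 family, had 372, 805, 2 and 376 counts in the clusters and 0 in all 4 endothelial libraries. In the same libraries the sum of 10 hematopoietic markers was 1211 to 1944 CPM in the clusters and 93.0 to 103 CPM in endothelium, and the macrophage sum 280 to 865 against 6.91 to 34.9 CPM, and their part in these differences was not tested. In wild type alone 2 of the 107 were called higher and 10 lower, where 4.56% and 3.68% of all genes were. In Sl/Sl alone 0 were called higher and 5 lower, where 0.985% and 1.84% of all genes were.

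**Figure D4:**
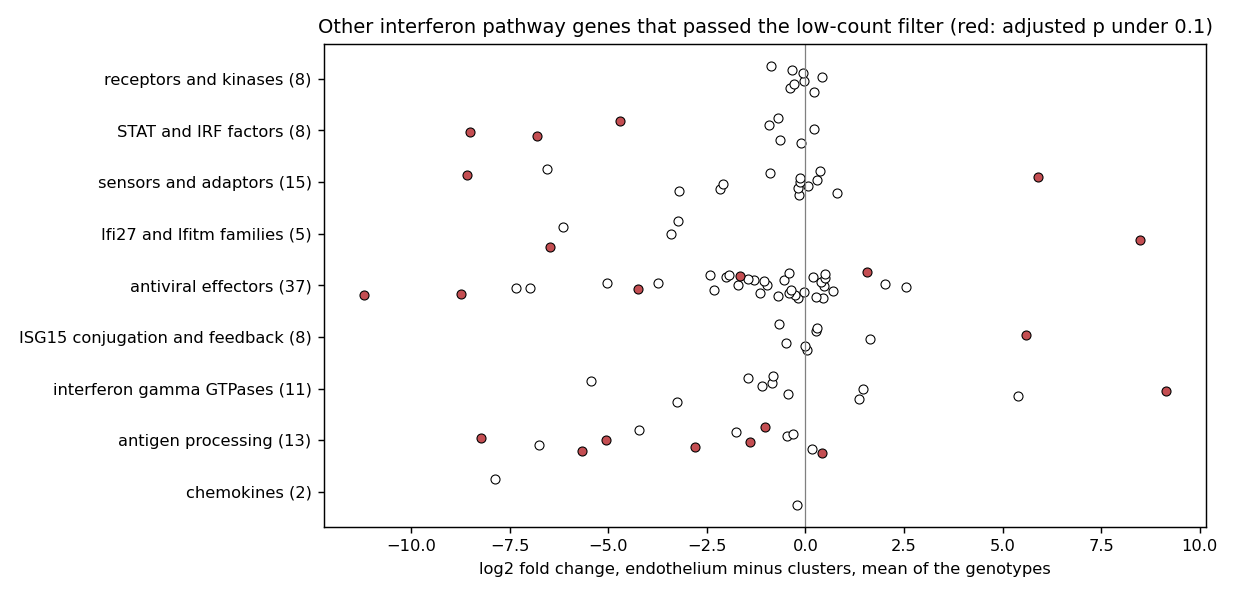
Log2 fold change of endothelium minus clusters, as the mean of the genotypes, for each of the 107 other pathway genes that passed the filter, by list, with the number of genes in brackets and red points for an adjusted p under 0.1. Receptors and kinases cluster around 0 with 0 of 8 called, where 16.6% of all tested genes were called. Antigen processing genes lie mostly to the left with 6 of 13 called lower, where 8.12% of all tested genes were. Fold changes of genes at or near 0 in a group depend on the prior count.

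In Sl/Sl against wild type clusters, 0 of the 107 genes were called (edgeR), where 0.00% of all genes were. The shares with an unadjusted edgeR p under 0.05, 2 of the 107 genes and 4.22% of all genes, were not tested against each other. The 2 genes were Ube2l6, the conjugating enzyme of Isg15, with 33 and 189 wild type counts against 433 and 457 (adjusted p = 1), and the chemokine gene Ccl2 with 0 and 1 against 109 and 100 (adjusted p = 1). In endothelium, given without a test, 20 of the 107 genes (18.7%) were higher in Sl/Sl without overlap and 14 (13.1%) lower. Of all tested genes, 13.5% were higher and 14.9% lower without overlap. The following examples were chosen after their values were seen. Ifit2, an RNA-binding antiviral effector, went from 3 and 4 wild type counts to 129 and 66, and Rtp4, a receptor transporter gene induced by interferon, had 394 and 72 against 1303 and 539. Rsad2, the gene of the antiviral enzyme viperin, had 67 and 32 against 589 and 96. Gbp2, an interferon-inducible GTPase, had 0 and 0 against 49 and 73. Other response genes were lower in Sl/Sl. The endothelial counts of Bst2, which tethers virus particles, were 1409 and 1313 for wild type, against 1099 and 914, and those of H2-K1 were 330 and 213 against 97 and 47. Usp18, the Isg15-specific protease that dampens receptor signaling, had 4 and 43 against 159 and 11 counts and overlapped.

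The genes whose pattern was most like that of Ifi27 across the 8 libraries, by Pearson's r of log2 CPM over 13908 genes, were Dcaf12l1 (r = 0.958), Cyp4v3 (0.958), Fhit (0.958), Kif14 (0.957) and Rwdd3 (0.955), none of them on the pathway lists. All were low in wild type endothelium, where Dcaf12l1, Cyp4v3 and Rwdd3 had 1 count in each library, and the points share their libraries and depth. Of the set itself Irf7 was nearest (r = 0.704, rank 529), followed by Ifitm1 (0.476), Irf8 (0.434), Irf1 (-0.014), Stat2 (-0.029), Isg15 (-0.224), Ifitm3 (-0.283) and Ifitm2 (-0.414).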

How the data were processed

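The deposited values were raw read counts per gene for 8 libraries, made by the authors from 75-base read pairs aligned to mm9 with STAR 2.4.2a and counted with featureCounts of Subread 1.4.5. The gene annotation, the strand setting and the handling of reads with several matches are not given in the sources used here. The 9 genes and all lists were chosen with earlier results of these data known.

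Counts were tested with edgeR 4.0.16 (TMM, filterByExpr, quasi-likelihood, 4 groups of 2 in a shared fit with 4 residual degrees of freedom, Benjamini-Hochberg over 13908 genes, threshold 0.1), after a check on simulated data. The simulated counts had a lower dispersion than the 0.667 fitted to these data, and only genes of higher level were changed. The check therefore does not cover genes near 0 or the full spread seen here. Log2 CPM used a prior count of 2, and RPKM used plain totals and listed exon lengths. A count of 0 was set against a floor of 3 counts per library, and intervals cover counting error at 95%. Exact permutation tests compared 4 against 4 libraries (70 relabellings). Alternatives were DESeq2 1.42.0, RLE size factors, no low-count filter, a replicate block, a threshold of 0.05 and leaving out each library. Named pathway genes were those with the smallest p in each contrast (up to 10 called genes, or the 3 smallest where fewer than 3 were called), and the other pathway genes named were chosen after their values were seen. Motifs were searched in RefSeq promoters, whose build, GRCm38.p6, differs from that of the counts.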

Additional observations from a re-analysis of the deposited data

How the results depend on the processing

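With each of the 8 libraries left out in turn, where the lone library of a group was taken to vary like the others, Ifi27 in Sl/Sl against wild type endothelium ranged from 5.71 to 7.01 on the log2 scale. The genes of the set called between the cell types numbered 2 to 4 as the mean of the genotypes, 1 to 2 in wild type alone and 1 to 2 in Sl/Sl alone. The other pathway genes called numbered 13 to 19, with 13 without Sl/Sl cluster replicate 2, against 21 on all libraries and 34 by DESeq2. DESeq2 called 6 genes of the set as the mean of the genotypes (edgeR 4), 3 in wild type (edgeR 2) and 4 within Sl/Sl (edgeR 2). Within Sl/Sl it added Isg15 (adjusted p = 0.0698) and Irf1 (adjusted p = 0.0263). At a threshold of 0.05 the edgeR fit kept only 2 genes in the mean of the genotypes, Ifitm1 and Irf8.

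The sign of some uncalled differences turned when a library was left out. In Sl/Sl against wild type clusters the log2 range was -0.17 to 0.36 for Ifitm2, -0.44 to 1.07 for Ifitm3, -0.82 to 0.74 for Irf7, -0.75 to 0.053 for Irf8 and -3.10 to 5.22 for Tlr3. Between the cell types it was -0.55 to 0.38 for Stat2 as the mean of the genotypes and -1.67 to 0.15 in Sl/Sl, and in wild type -0.026 to 1.32 for Ifitm3 and -0.73 to 1.77 for Isg15. In Sl/Sl against wild type endothelium, which was not tested, it was -0.57 to 2.67 for Isg15, -1.40 to 0.41 for Stat2 and -0.039 to 0.22 for Ifitm2, and Irf7 ranged from 0 to 7.73. No difference turned its sign under DESeq2, RLE size factors, no filter or the replicate block.

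Replicate numbers did not clearly pair the samples, with correlations of same-numbered deviations from -0.111 to 0.157 between the 6 pairs of groups. A replicate block left 0 genes of the set called in the clusters, 3 in the mean of the cell types (Ifitm2 lost, adjusted p = 0.107), 2 in wild type and 2 in Sl/Sl. The causes of these changes were not tested. A count of 0 in a library allows a level of up to 0.223 to 0.336 CPM, which limits what can be said of Irf7, Irf8 and Isg15 where they had few or no counts.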
